A study of Mus musculus with 6 samples.

Results

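MHC class II and peptide loading is represented here by 10 genes picked by symbol, and all 10 are among the 11489 genes of the expression table. They encode the classical chains (H2-Aa, H2-Ab1, H2-Eb1), the invariant chain (Cd74), the DM peptide exchange factor (H2-DMa, H2-DMb1, H2-DMb2), the class II transactivator (Ciita) and a pair of surface proteins of activated antigen-presenting cells (Cd86, Cd83). RNA was sequenced from mouse bone marrow cells sorted by flow cytometry as F4/80+ Epor-eGFP+ (3 libraries) or F4/80+ Epor-eGFP- (3 libraries). F4/80 is a macrophage surface protein, and Epor-eGFP is a green fluorescent reporter for the erythropoietin receptor gene Epor. Both groups carry the label of erythroblastic island macrophages, the cells around which red cell precursors mature, and the labels separate the groups by the reporter. The sources used here do not give strain, age, the construction of the reporter or how many animals were used. Since no label ties a library to an animal, p-values reflect library-to-library spread only, and that spread may be technical.

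In antigen-presenting cells an alpha and a beta class II chain assemble around the invariant chain, which escorts them to endosomes. Proteases there trim the invariant chain to a short remnant, CLIP, which DM exchanges for antigen peptides, while the related DO protein restrains DM. Transcription depends on Ciita, a coactivator held at class II promoters by the RFX, CREB and NF-Y factors bound to the conserved X and Y boxes. Cd86 binds CD28 on T cells, and Cd83 counters the ubiquitin ligase MARCH1, which otherwise removes class II and Cd86 from the surface.

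Sequences upstream of the start site are shown for a pair of members that were higher in Epor-eGFP+ (H2-Aa and H2-Eb1) and for the DM beta genes, which had no call, since each holds a Y box-like element. RefSeq windows (GRCm38.p6) were found for 5 of the 10 members, H2-Aa, H2-Eb1, H2-DMa, H2-DMb1 and H2-DMb2. H2-Ab1, Cd74, Ciita, Cd86 and Cd83 had none in the table. The 160 bases before the start site are printed 5′ to 3′ on the gene's strand. Capitals mark GATTGG, the reverse of the CCAAT box that NF-Y recognises, and, where it lies 20 to 30 bases before it, GNAAC, a short core of the X box.
H2-Aa, chr17:34287824-34287983, minus strand: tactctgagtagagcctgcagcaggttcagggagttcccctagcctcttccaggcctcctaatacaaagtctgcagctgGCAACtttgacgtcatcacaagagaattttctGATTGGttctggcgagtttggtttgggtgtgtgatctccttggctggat
H2-Eb1, chr17:34305707-34305866, plus strand: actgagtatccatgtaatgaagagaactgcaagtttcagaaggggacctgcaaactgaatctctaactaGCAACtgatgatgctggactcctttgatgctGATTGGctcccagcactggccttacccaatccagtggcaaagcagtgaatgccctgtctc
H2-DMb1, chr17:34153031-34153190, plus strand: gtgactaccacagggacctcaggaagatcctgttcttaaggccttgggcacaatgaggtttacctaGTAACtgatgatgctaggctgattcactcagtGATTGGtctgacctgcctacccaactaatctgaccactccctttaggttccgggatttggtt
H2-DMb2, chr17:34145089-34145248, plus strand: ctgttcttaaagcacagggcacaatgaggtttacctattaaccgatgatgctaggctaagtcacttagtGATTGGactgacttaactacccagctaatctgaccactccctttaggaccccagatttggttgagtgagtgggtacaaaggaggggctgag
The pair has 27 bases between its parts in H2-Aa, 26 in H2-Eb1 and 27 in H2-DMb1, and GATTGG begins 49, 60 and 62 bases before the start site. In H2-DMb2 GATTGG begins 91 bases before the start site without GNAAC at that spacing. TTAAC stands there instead, with 27 bases between it and GATTGG, and differs from GNAAC only in its first base. In windows of 300 bases (250 before and 50 after the start site), searched on both strands, GNAAC occurs in 84.8% of all 32851 windows, GATTGG in 16.1% and the spaced pair in 0.651%. Among 9 windows of 8 class II genes (the 5 members, H2-Oa, H2-Ob and H2-Eb2), 6 hold the pair, and neither H2-DMa window does. These letters and the spacing were chosen after the sequences were seen, and a match is a description, not a shown binding site.

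Expression is given as FPKM (fragments per kilobase, scaled to the size of the library), which corrects for gene length, so levels of different genes can be compared. The read depth is unknown. Libraries are named by the number in their column, 0 to 2, and values that follow each other come in that order. The groups were compared with limma on log2(FPKM + 1), and a gene counts as higher or lower in Epor-eGFP+ at a Benjamini-Hochberg adjusted p below 0.05 over all 10964 genes whose mean reached 1 FPKM. Of all tested genes 22.7% were higher and 26.3% lower, with a median log2 fold change of −0.01. Counts of called genes in the lists below are to be read beside these shares. Of the calls 46.3% were higher, and 59.5% after rescaling every library to a common total. Total FPKM per library lay between 467176 and 519650. Epor was at 5.96 ± 2.26 FPKM in Epor-eGFP+ and 0.335 ± 0.105 in Epor-eGFP- (SD, n = 3 each), and Adgre1, the F4/80 gene, at 167 ± 65.5 and 136 ± 3.85. Of 15 macrophage markers 11 were higher in Epor-eGFP+ and none lower. The 14 neutrophil markers summed to 20088 to 25745 FPKM in Epor-eGFP+ and to 25969 to 40234.5 in Epor-eGFP-, against 2348 to 7691 and 656 to 903 for the macrophage markers. The neutrophil sum mixes directions, with 10 genes lower and 3 higher in Epor-eGFP+, so it understates the fall of the lower ones.

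Of the 10 members, 7 were higher in Epor-eGFP+, none was lower and 3, the DM genes, had no call, with a median log2 fold change of 1.014. Among all tested genes 22.7% were higher and 26.3% lower. All 10 were tested, and each exceeded the minimum in both groups. Mean FPKM of the classical chains was 2.14 to 2.70 times higher, that of Cd86 3.77 times and that of Cd83 3.37 times. The groups did not overlap for 6 of the 10 members, a share close to that of all tested genes (60.4%). The count of members called ran from 5 to 8 over the 15 alternative analyses, and no member was called lower in any of them. At an unadjusted limma p below 0.05 no member was lower either.

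**Figure D1:**
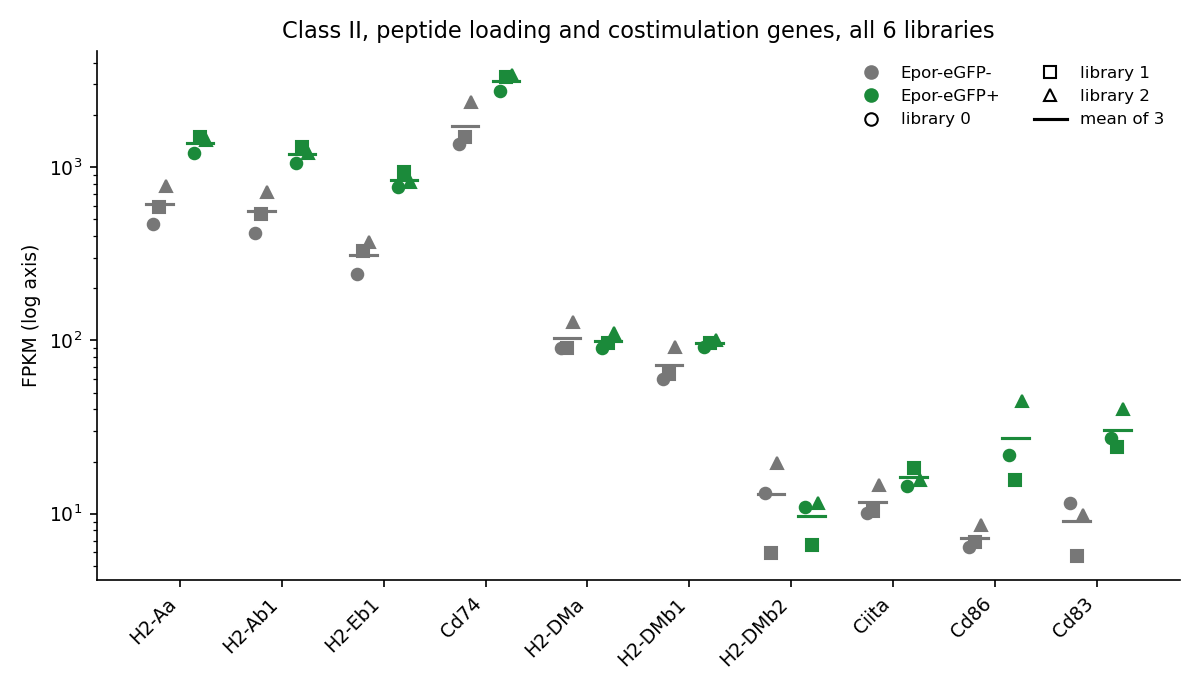
FPKM on a log axis for the 10 genes in each library; grey marks Epor-eGFP-, green Epor-eGFP+, the marker shape the library number and the bar the mean of 3. The classical chains and Cd74 lie at 241 to 3412 FPKM, well above Ciita, Cd86 and Cd83, and the groups overlap for the 3 DM genes and Ciita.

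H2-Aa, the alpha chain of the I-A molecule, measured 467, 591 and 778 FPKM in the Epor-eGFP- libraries, against 1211, 1496 and 1443 in the Epor-eGFP+ libraries. Every Epor-eGFP+ library was above every Epor-eGFP- library. The log2 fold change was 1.20 (SE 0.19, limma adjusted p = 0.00297), with means of 1383 ± 151 against 612 ± 156 FPKM (SD, n = 3). H2-Ab1, the beta chain of the same molecule, was at 417, 537 and 720 FPKM in Epor-eGFP- and at 1060, 1312 and 1215 in Epor-eGFP+. It followed H2-Aa library by library (log2 fold change 1.13, SE 0.20, adjusted p = 0.00432). H2-Eb1, the beta chain of the I-E molecule, was at 241, 329 and 369 FPKM in Epor-eGFP- and at 772, 937 and 826 in Epor-eGFP+ (1.45, SE 0.17, adjusted p = 0.00102). All 3 chains were lowest in library 0 of each group, highest in library 2 of Epor-eGFP- and highest in library 1 of Epor-eGFP+. Fewer cells of a type and less RNA per cell cannot be told apart in these bulk libraries, here or in any result that follows. The exact permutation test (two-sided) gave 0.1 for each chain, the smallest p that 3 against 3 libraries allow.

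The chains kept nearly the same proportion to each other within a group. The ratio of H2-Aa to H2-Ab1 was 1.16 ± 0.0269 in Epor-eGFP+ and 1.10 ± 0.0195 in Epor-eGFP-. That of H2-Eb1 to H2-Ab1 was 0.707 ± 0.0248 and 0.568 ± 0.0512 (SD, n = 3 each, not tested). Summed over the 3 chains, the libraries held 1126, 1456 and 1867 FPKM in Epor-eGFP- and 3043, 3745 and 3483 in Epor-eGFP+. Class II genes differ in sequence between mouse strains, and how that bears on reads aligned to the reference genome was not tested.

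Cd74, the invariant chain that also acts as a surface receptor for the cytokine MIF, was the most abundant member. It measured 1353, 1492 and 2367 FPKM in the Epor-eGFP- libraries, against 2761, 3299 and 3412 in the Epor-eGFP+ libraries. By mean FPKM it ranked 9 of 11489 genes in Epor-eGFP+ and 21 in Epor-eGFP-, while H2-Aa ranked 34 and 130. The groups did not overlap, although Epor-eGFP- library 2 came near the lowest Epor-eGFP+ library. The log2 fold change was 0.90 (SE 0.22, adjusted p = 0.0147), and without Epor-eGFP- library 0 it was 0.74 with an adjusted p of 0.0528. Relative to the summed chains, Cd74 was lower in Epor-eGFP+, at a ratio of 0.923 ± 0.0511 against 1.16 ± 0.126 in Epor-eGFP- (SD, n = 3 each, not tested). Together the chains and Cd74 made up 1.37 ± 0.136% of total FPKM in Epor-eGFP+ and 0.627 ± 0.175% in Epor-eGFP-.

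**Figure D2:**
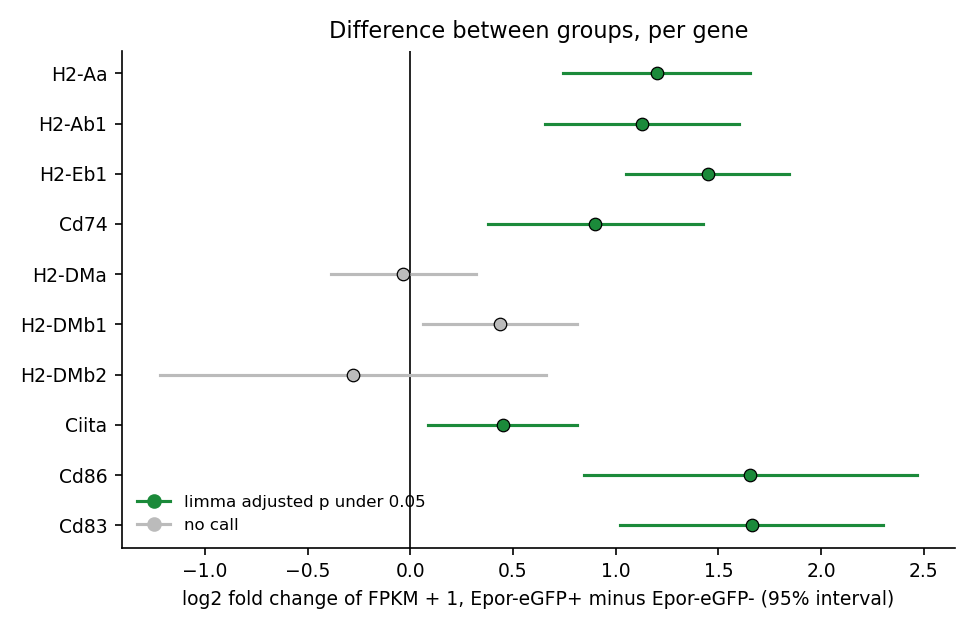
Log2 fold change of FPKM + 1, Epor-eGFP+ minus Epor-eGFP-, for each of the 10 genes, with the 95% interval of the limma fit as a bar; green marks an adjusted p below 0.05. The 3 classical chains lie between 1.13 and 1.45 and Cd86 and Cd83 at 1.66, while the intervals of H2-DMa and H2-DMb2 span 0.

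The DM genes showed no call. H2-DMa, the DM alpha chain, measured 90.7, 90.8 and 127 FPKM in the Epor-eGFP- libraries, against 91.0, 96.8 and 110 in the Epor-eGFP+ libraries, so the groups overlapped fully. Its log2 fold change was −0.03 (SE 0.15, 95% interval −0.39 to 0.32, adjusted p = 0.861), an interval that lies below the estimate for each classical chain. The sign of the H2-DMa difference turned with the scaling, to 0.065 with a common total, 0.027 with a common upper quartile and 0.038 with quantile normalization. H2-DMb1, the main DM beta gene by level here, was at 60.1, 64.2 and 92.1 FPKM in Epor-eGFP- and at 91.5, 97.2 and 100.1 in Epor-eGFP+. The groups met at Epor-eGFP- library 2, and the log2 fold change of 0.44 (SE 0.16, 95% interval 0.06 to 0.81) missed the threshold with an adjusted p of 0.0559. With the replicate block its adjusted p was 0.0261. Leaving out Epor-eGFP- library 2 gave 0.00350 at a log2 fold change of 0.62. H2-DMb1 also passed with a common total (adjusted p = 0.0250), a common upper quartile (0.0290) and quantile normalization (0.0260), and without both libraries numbered 2 (0.00445). H2-DMb2, the neighbouring second DM beta gene, was at 13.1, 5.92 and 19.7 FPKM in Epor-eGFP- and at 10.9, 6.62 and 11.5 in Epor-eGFP+ (−0.28, SE 0.40, adjusted p = 0.586), and was lowest in library 1 of each group. Without Epor-eGFP- library 2 its log2 fold change was 0.075.

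The 2 DM beta genes are close copies. Over 1248 aligned bases of their main GENCODE transcripts 94.8% were identical, with a longest shared run of 221 bases, so the split of reads between them is an estimate. Their sum was 73.3, 70.1 and 112 FPKM in Epor-eGFP- and 102, 104 and 112 in Epor-eGFP+, of which H2-DMb2 took 6.37 to 17.9%. The summed classical chains were 34.6 ± 3.70 times the H2-DMa level in Epor-eGFP+ and 14.4 ± 1.83 times in Epor-eGFP-, without overlap between the groups (SD, n = 3 each, not tested). The chains and the DM genes lie in a single stretch of chromosome 17 (GRCm38, GENCODE M21). H2-DMa spans 34119541 to 34139101, H2-DMb2 34143307 to 34151555, H2-DMb1 34153072 to 34160230, H2-Ab1 34257689 to 34269419, H2-Aa 34282744 to 34287823 on the minus strand, and H2-Eb1 34305867 to 34316674, and the values are for whole genes.

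Ciita was far less abundant than the classical chains, Cd74, H2-DMa and H2-DMb1, and near the level of H2-DMb2. It measured 10.1, 10.3 and 14.6 FPKM in the Epor-eGFP- libraries, against 14.5, 18.3 and 15.7 in the Epor-eGFP+ libraries. Epor-eGFP- library 2 stood just above Epor-eGFP+ library 0, and in Epor-eGFP+ library 1 was highest, as for the chains. Ciita rose by 0.45 on the log2 scale (SE 0.15, adjusted p = 0.0460), and its exact permutation p was 0.2. The call was lost in 5 of the 6 analyses that left out a library. The adjusted p was 0.144 without Epor-eGFP- library 0, 0.123 without Epor-eGFP- library 1, and 0.0663, 0.122 and 0.0739 without Epor-eGFP+ library 0, 1 or 2. The summed chains were 212 ± 8.78 times the Ciita level in Epor-eGFP+ and 127 ± 14.9 times in Epor-eGFP- (SD, n = 3 each, not tested).

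Cd86 measured 6.39, 6.85 and 8.55 FPKM in the Epor-eGFP- libraries, against 21.8, 15.7 and 44.6 in the Epor-eGFP+ libraries. Every Epor-eGFP+ library was higher, with a spread of 2.84 times between library 1 and library 2. The log2 fold change was 1.66 (SE 0.34, adjusted p = 0.00751), and the Epor-eGFP+ mean of 27.4 FPKM was 18.8 without library 2. Cd83 was at 11.6, 5.72 and 9.87 FPKM in Epor-eGFP- and at 27.2, 24.1 and 40.03 in Epor-eGFP+ (1.66, SE 0.27, adjusted p = 0.00314). Both genes were highest in Epor-eGFP+ library 2 and lowest in library 1, unlike the chains. The Cd86 gene occupies chromosome 16, 36603869 to 36666081 (minus strand), Ciita the same chromosome, 10480059 to 10528418, and Cd83 chromosome 13, 43784775 to 43803132.

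Within Epor-eGFP+ the members did not share an order of libraries. C1qa and C1qc, which encode chains of complement C1q and rose most among the macrophage markers, were at 739, 443 and 1616 and at 693, 410 and 1604 FPKM in libraries 0, 1 and 2. The Epor-eGFP+ mean of C1qa was 933 FPKM, or 591 without library 2, and that of C1qc 902, or 551. Cd86, Cd83 and H2-DMb2 had their highest and lowest libraries where C1qa did. Cd74, H2-DMa and H2-DMb1 peaked in library 2 too, but had their minimum in library 0. The classical chains and Ciita were highest in library 1, where C1qa was lowest, and lowest in library 0. The chains varied by 1.21 to 1.24 times among these libraries. Itgax, the integrin CD11c of dendritic cells and some macrophages, was also highest in library 1, at 21.1, 25.6 and 21.3 FPKM in libraries 0, 1 and 2, against 8.57, 8.93 and 7.79 in Epor-eGFP- (1.32, SE 0.10, adjusted p = 0.000336). The other dendritic cell markers examined, all but Clec10a, were highest in library 1 of Epor-eGFP+ too. In Epor-eGFP- these markers did not share a highest library. With 3 libraries these orders are a description.

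**Figure D3:**
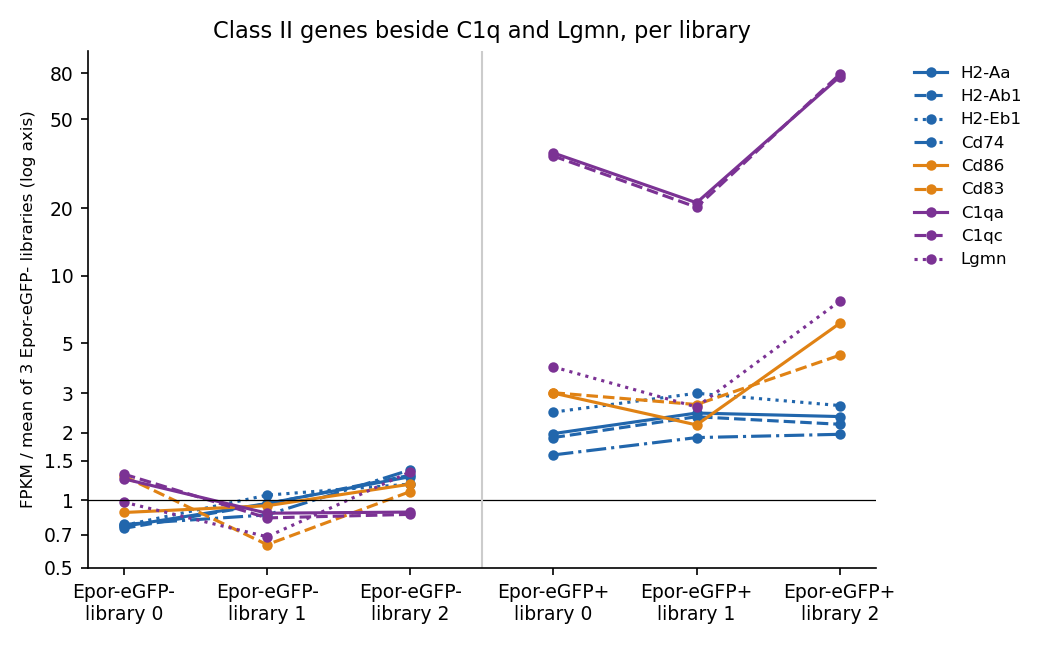
FPKM of each gene divided by its mean over the 3 Epor-eGFP- libraries, on a log axis, for the classical chains and Cd74 (blue), Cd86 and Cd83 (orange) and C1qa, C1qc and Lgmn (purple); lines only join the points of a gene. In Epor-eGFP+ the chains and Cd74 stay between 1.59 and 2.99 times that mean in all 3 libraries, while C1qa runs from 21.2 to 77.2 times and Cd86 from 2.16 to 6.14 times.

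The likeness of whole profiles was measured as the root mean square distance, on the log2(FPKM + 1) scale over the 6 libraries, between a gene's centred values and the centred mean of H2-Aa, H2-Ab1, H2-Eb1 and Cd74. The nearest non-members were Afap1, an actin filament binding protein (distance 0.131), Ehf, an ETS family transcription factor (0.173), Gstm1, a glutathione transferase (0.177), Steap3, an endosomal ferrireductase (0.195), and Cracr2b (0.196). Each was higher in Epor-eGFP+, by 1.05 to 1.35 on the log2 scale. Mean FPKM in Epor-eGFP+ and Epor-eGFP- was 6.81 and 2.31 for Afap1, 6.62 and 1.99 for Cracr2b, and 2.12 and 0.402 for Ehf. At such levels the added 1 FPKM understates changes, so nearness on this scale is not an equal fold change of FPKM. The log2 fold change of Ehf ran from 0.84 to 2.18 over the alternatives. Gstm1 measured 83.5, 103 and 100.4 FPKM in the Epor-eGFP- libraries, against 204.1, 204.0 and 227 in the Epor-eGFP+ libraries. Of the other members, Ciita stood 521st, H2-DMb1 548th, Cd83 2108th, Cd86 2382nd, H2-DMa 4599th and H2-DMb2 9247th of the 10964 genes by this distance.

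The other class II genes examined, H2-Oa, H2-Ob and H2-Eb2, were not higher in Epor-eGFP+. H2-Oa, the alpha chain of the DM inhibitor DO, measured 25.3, 16.9 and 21.4 FPKM in the Epor-eGFP- libraries, against 12.9, 9.29 and 10.5 in the Epor-eGFP+ libraries, without overlap (log2 fold change −0.89, SE 0.17, adjusted p = 0.00537). H2-Ob, the DO beta chain, was at 15.6, 6.84 and 15.5 FPKM in Epor-eGFP- and at 7.23, 5.73 and 7.43 in Epor-eGFP+ (−0.73, SE 0.29, adjusted p = 0.0745). With the replicate block the adjusted p of H2-Ob was 0.0203. Leaving out Epor-eGFP- library 1 gave 0.00224 at a log2 fold change of −1.09. H2-Eb2 was near 1 FPKM in both groups (1.36 ± 0.129 and 1.38 ± 0.589, adjusted p = 0.941). The H2-DMa level was 9.33 ± 2.00 times that of H2-Oa in Epor-eGFP+ and 4.97 ± 1.23 times in Epor-eGFP- (SD, n = 3 each, not tested).

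Among the Epor-eGFP- libraries, H2-Oa, H2-Ob and H2-DMb2 were lowest in library 1, and so were 19 of 20 genes listed as markers of B cells, which express DO. The exception was Jchain, which was highest there at 19.6 FPKM. H2-Oa, H2-Ob and H2-DMb2 were also lowest in library 1 of Epor-eGFP+, where the summed B lineage markers were not. The 20 B lineage markers summed to 484, 195 and 586 FPKM in the Epor-eGFP- libraries, against 347, 362 and 455 in Epor-eGFP+, so the groups overlapped. Of 18 tested, 4 were higher, none was lower and 14 had no call, beside 22.7% higher and 26.3% lower among all tested genes. Ms4a1 came nearest to a lower call (limma adjusted p = 0.0961). The median log2 fold change of these markers was −0.09, and no gene was at 0 in any library. By limma without adjustment none of the B lineage markers was lower at p below 0.05. Jchain, the joining chain of antibodies (2.71, SE 0.47, adjusted p = 0.0040), and Igll1, part of the surrogate light chain of B cell precursors (1.48, SE 0.27, adjusted p = 0.00484), led those that were higher. Cd79a and Ms4a1, surface genes of B cells chosen after their values were seen, ran at 39.0 and 10.7 FPKM in Epor-eGFP- library 1 and at 109 and 35.3 in Epor-eGFP- library 0. Their part in the class II values was not tested. The classical chains were not low in Epor-eGFP- library 1, where their sum lay between those of the other libraries of that group.

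**Figure D4:**
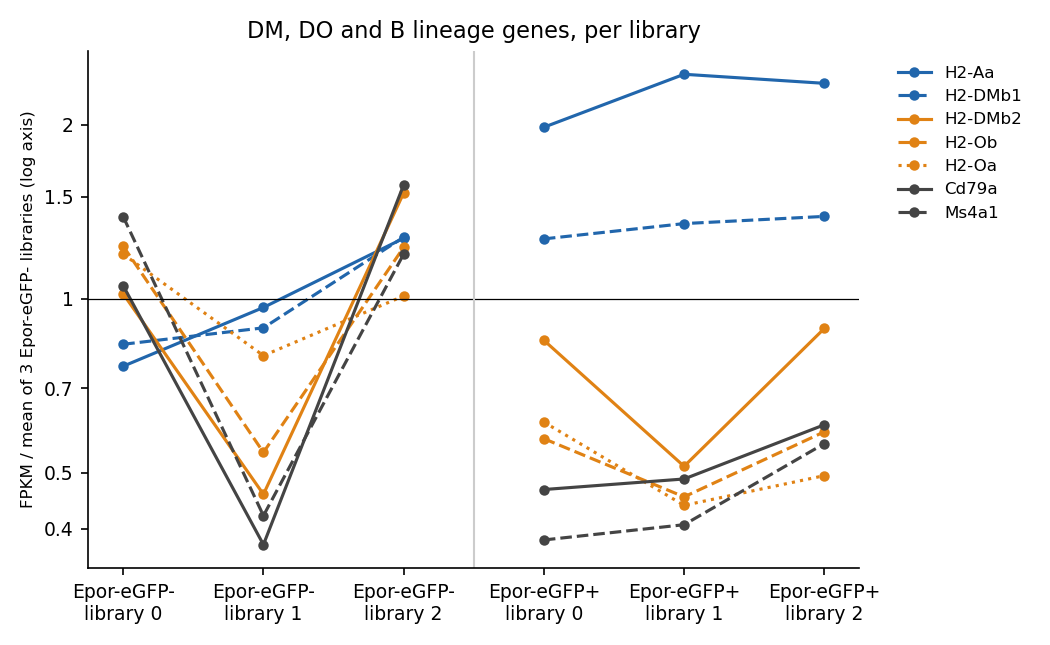
FPKM divided by the mean of the 3 Epor-eGFP- libraries, on a log axis, for H2-Aa and H2-DMb1 (blue), H2-DMb2, H2-Ob and H2-Oa (orange) and the B cell genes Cd79a and Ms4a1 (grey); lines only join the points of a gene. In Epor-eGFP- library 1 H2-DMb2 is at 0.458, H2-Ob at 0.542 and Cd79a at 0.375 times the mean, while H2-Aa is at 0.965.

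Dendritic cells also carry class II, Cd86 and Cd83. Of 10 tested dendritic cell markers, 3 were higher in Epor-eGFP+ (Itgax, Clec9a and Fscn1), 2 were lower (Flt3 and Ly75) and 5 had no call. Their median log2 fold change was −0.15, and the shares over all tested genes were 22.7% higher and 26.3% lower. Clec9a, Clec10a, Fscn1, Ly75 and Zbtb46 are named after their values were seen. The 12 markers in the table summed to 96.9, 139 and 124 FPKM in the Epor-eGFP+ libraries, against 88.5, 117 and 140.03 in Epor-eGFP-. These sums overlapped between the groups, but within each group their library order was that of the summed classical chains. Flt3, the growth factor receptor of dendritic cell precursors, fell from 9.89 ± 1.57 to 3.91 ± 0.554 FPKM (−1.15, SE 0.13, adjusted p = 0.00103). Zbtb46, a transcription factor of classical dendritic cells whose mean was below the test's minimum, was at 1.43 to 1.58 FPKM in Epor-eGFP+ and 0.356 to 0.441 in Epor-eGFP-. None of these 12 markers was at 0 in a library. Xcr1, Ccr9, Itgae and Cd207 of the list had no row in the expression table, so their levels are unknown. Monocytes express class II as well, and 11 of 12 monocyte markers were lower in Epor-eGFP+, with none higher. Fn1 (−2.38, SE 0.18, adjusted p = 0.000375) and Vcan (−2.49, SE 0.23, adjusted p = 0.000549) fell most, and the list summed to 1395 to 1677 against 3257 to 4560.5 FPKM. The part of these cells in the class II difference was not tested.

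The factors that bind class II promoters or govern Ciita did not rise with the chains. Of 21 tested, 1 was higher, 12 were lower and 8 had no call, beside 22.7% higher and 26.3% lower among all tested genes. The median log2 fold change was −0.41, against −0.01 over all genes. Of the RFX, CREB and NF-Y genes, Rfx5 (0.05), Rfxap (−0.07), Nfya (−0.17) and Nfyc (−0.15) had no call. Rfxank (−0.28, limma adjusted p = 0.0483), Creb1 (−0.32, 0.0314) and Nfyb (−0.41, 0.0369) were lower. These genes are named after their values were seen. The gene that was higher, Prdm1, named after its values were seen, encodes a repressor of Ciita and was at 2.70 against 1.72 FPKM. No gene of the list was higher without Epor-eGFP- library 0, without Epor-eGFP+ library 0 or with quantile normalization. Irf2, an interferon regulatory factor, fell from 54.8 ± 7.49 to 30.4 ± 3.10 FPKM (−0.83, SE 0.12, adjusted p = 0.00209). Ifngr2, a chain of the interferon gamma receptor, fell by 0.78, the acetyltransferase genes Ep300 and Crebbp by 0.80 and 0.75, and Socs1, an inhibitor of cytokine signalling, by 0.66 on the log2 scale. Adjusted p was 0.00726 for Ifngr2, 0.000957 for Ep300, 0.000942 for Crebbp and 0.0158 for Socs1, and Socs1 was at 0.0594 without both libraries numbered 2. Ifngr1 (187 ± 26.1 and 166 ± 6.83 FPKM in Epor-eGFP- and Epor-eGFP+) and Irf8 (93.3 ± 10.9 and 77.3 ± 17.02) had no call. With the replicate block the adjusted p of Irf8 was 0.0251. Leaving out Epor-eGFP+ library 2 gave 0.0337.

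Genes listed for antigen and invariant chain processing, mostly endosomal proteases and tetraspanins, moved both ways, with 6 of 12 higher, 3 lower and 3 without a call (median 0.72). Shares over all tested genes were 22.7% higher and 26.3% lower. Lgmn, asparagine endopeptidase, rose from 52.8 ± 17.2 to 250.5 ± 140 FPKM (2.13, SE 0.41, adjusted p = 0.00567). Ctsd, cathepsin D, measured 1133, 634 and 2208 FPKM in the Epor-eGFP+ libraries, against 315 ± 33.5 in Epor-eGFP- (1.89, SE 0.41, adjusted p = 0.00885), and its Epor-eGFP+ mean of 1325 was 883 without library 2. Ctsb rose by 1.47 (adjusted p = 0.0165, and 0.0533 without Epor-eGFP- library 0), and the tetraspanin Cd82 by 1.20. The tetraspanin Tspan33 rose from 1.64 ± 0.144 to 10.5 ± 2.49 FPKM (adjusted p = 0.000334). At 13.3, 9.35 and 8.73 FPKM in the Epor-eGFP+ libraries, it was highest in library 0, while Lgmn and Ctsd were highest in library 2. A part of Tspan33 in processing was not tested. Cd82 lost its call without Epor-eGFP- library 1 (adjusted p = 0.0604), Epor-eGFP- library 2 (0.0613) or Epor-eGFP+ library 0 (0.0582). Ctss, cathepsin S, which cuts the invariant chain to CLIP, was at 656, 557 and 982 FPKM in Epor-eGFP- and at 481, 450 and 724 in Epor-eGFP+. The groups overlapped and its log2 fold change was −0.40 (SE 0.26, adjusted p = 0.235, and 0.00965 with the replicate block). Within each column number Ctss was lower in Epor-eGFP+, and without both libraries numbered 2 its adjusted p was 0.0365. Cd63 was at 566 ± 60.0 and 440.2 ± 97.2 FPKM in Epor-eGFP+ and Epor-eGFP- (adjusted p = 0.113, and 0.0486 with the replicate block). The genes that were lower are Ifi30, the thiol reductase of endosomes (−0.66), Ctsh (−0.80) and Sppl2a, which removes the last remnant of the invariant chain (−0.38), named after their values were seen. The count of lower genes in this list was 1 without Epor-eGFP- library 0, Epor-eGFP+ library 0 or Epor-eGFP+ library 1.

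The ubiquitin ligases of class II turnover moved in opposite directions. March1 measured 29.3, 26.2 and 40.6 FPKM in the Epor-eGFP- libraries, against 15.0, 14.1 and 22.1 in the Epor-eGFP+ libraries (−0.87, SE 0.21, adjusted p = 0.0135, and 0.0517 without Epor-eGFP+ library 0). March8, a related ligase, was at 6.37, 7.05 and 4.97 FPKM in Epor-eGFP- and at 16.3, 12.1 and 21.8 in Epor-eGFP+ (1.29, SE 0.21, adjusted p = 0.00313). Neither gene's groups overlapped, and the ratio of March8 to March1 was 0.979 ± 0.115 against 0.203 ± 0.0743 (SD, n = 3 each, not tested). Of the 13 turnover and export genes tested, 5 were higher, 5 lower and 3 without a call (median 0.06). Among all tested genes 22.7% were higher and 26.3% lower. The lower count was 2 with a common total, 3 with a common upper quartile and 2 with quantile normalization. It was also 2 without Epor-eGFP- library 0 and 1 without Epor-eGFP+ library 0, and the higher count was 3 without library 0 or 2 of either group. The tetraspanin Cd81 rose from 46.2 ± 8.47 to 163 ± 58.1 FPKM (1.76, SE 0.25, adjusted p = 0.00206), while the tetraspanin Cd37 fell by 0.50 (adjusted p = 0.00997). Myo1e, a myosin, rose by 0.69 (adjusted p = 0.0313), a call lost in 5 alternatives with an adjusted p of up to 0.103. Ap2m1 (105 ± 7.40 and 99.8 ± 4.15 FPKM) and Lamp1 (461 ± 153 and 428 ± 60.3) had no call. Lamp1 had a log2 fold change of 0.06, and −0.19 without Epor-eGFP+ library 2.

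All 5 genes listed as ligands or partners of surface Cd74 passed the test, 2 higher and 3 lower. Among all tested genes 22.7% were higher and 26.3% lower, and the list was chosen with earlier results of these data known. Mif, the cytokine that binds Cd74, was at 74.3, 106 and 73.3 FPKM in Epor-eGFP- and at 203, 189 and 174 in Epor-eGFP+ (1.17, SE 0.15, adjusted p = 0.00147), and its homologue Ddt rose by 0.55 (adjusted p = 0.0092). Cd44, the signalling partner of Cd74, fell from 127 ± 5.58 to 62.6 ± 5.12 FPKM (−1.01, SE 0.08, adjusted p = 0.000442). The chemokine receptor Cxcr4 fell by 0.95 (adjusted p = 0.000707) and Cxcr2 by 0.57 (adjusted p = 0.0178). The Cxcr2 call was lost without Epor-eGFP- library 0 (adjusted p = 0.0650), Epor-eGFP- library 1 (0.0535) or Epor-eGFP+ library 0 (0.0580). Cxcr2 is also a neutrophil gene, and 10 of the 14 neutrophil markers were lower. The 3 that were higher, Mpo, Elane and Prtn3, encode granule proteins of neutrophil precursors, with log2 fold changes of 2.16, 2.33 and 2.16, and are named after their values were seen.

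Other costimulatory and inhibitory surface genes had a median of 0.18. Of 11 tested, 1 was higher, 2 were lower and 8 had no call, beside 22.7% higher and 26.3% lower among all tested genes. The higher count was 2 with the replicate block, without Epor-eGFP- library 0 or without Epor-eGFP+ library 1. Icosl, the ligand of ICOS on T cells, was at 21.3, 16.0 and 22.5 FPKM in Epor-eGFP- and at 10.1, 9.82 and 9.69 in Epor-eGFP+ (−0.93, SE 0.13, adjusted p = 0.00167). Cd40, which receives the T cell signal CD40L, fell from 10.9 ± 3.30 to 5.32 ± 0.460 FPKM (−0.88, SE 0.20, adjusted p = 0.0108). Cd1d1, which presents lipids, rose by 0.87 (adjusted p = 0.0150). Cd80, the partner of Cd86 as a CD28 ligand and named after its values were seen, was at 3.07, 2.63 and 3.47 FPKM in Epor-eGFP- and at 3.04, 2.56 and 5.66 in Epor-eGFP+ (0.18, SE 0.23, adjusted p = 0.555). Among the genes without a call were Lgals9 (132 ± 5.06 and 125 ± 5.84 FPKM in Epor-eGFP+ and Epor-eGFP-) and Cd48 (89.4 ± 11.7 and 116 ± 17.2). With the replicate block Cd48 had an adjusted p of 0.00507, and without Epor-eGFP+ library 2 it was at 0.0249.

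**Figure D5:**
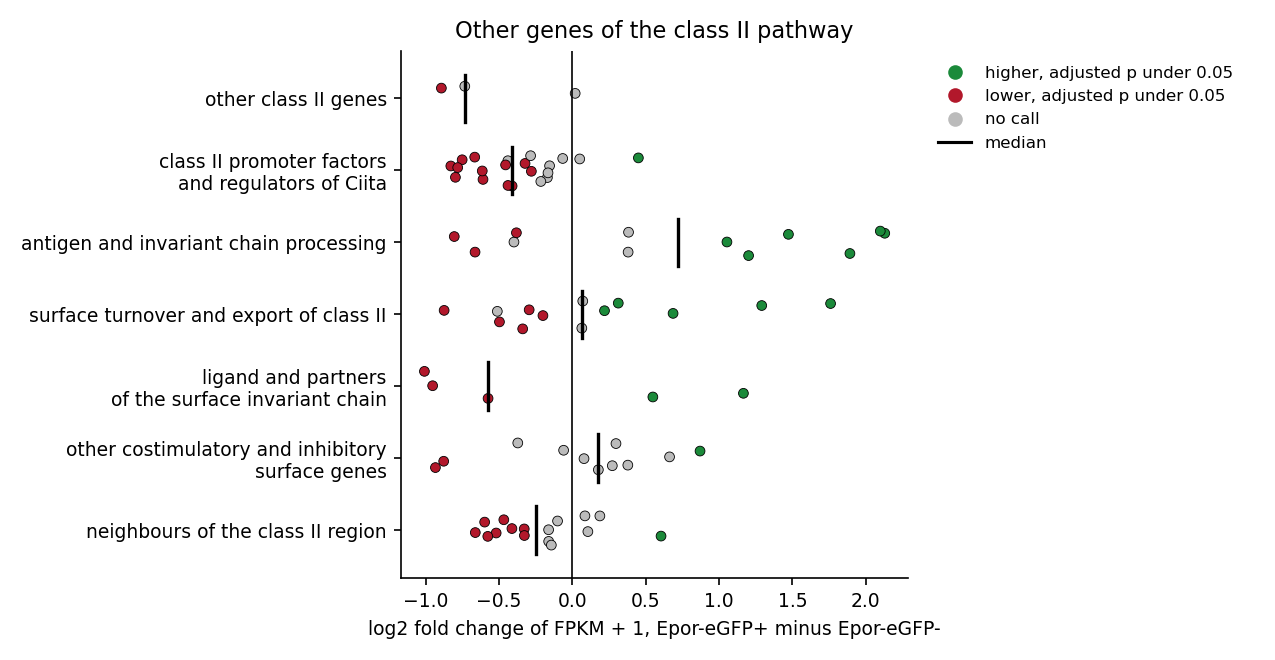
Log2 fold change of FPKM + 1, Epor-eGFP+ minus Epor-eGFP-, of each tested gene in 7 lists of the class II pathway; green marks higher and red lower at an adjusted p below 0.05, grey no call, and the black bar is the list's median. Medians run from −0.73 for the other class II genes to 0.72 for the processing genes, and 16 of the 81 genes are higher and 34 lower. Among all tested genes 22.7% are higher and 26.3% lower.

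Genes that flank or lie among the class II genes on chromosome 17 did not share the rise of the classical chains. Of 16 tested, 1 was higher, 8 were lower and 7 had no call (median −0.24). Tap1, a chain of the peptide transporter for class I that lies between H2-DMb1 and H2-Ab1, fell from 78.6 ± 4.94 to 51.6 ± 2.05 FPKM (−0.60, SE 0.07, adjusted p = 0.00126). Rgl2 fell by 0.66, Daxx, a histone chaperone, by 0.52 and Ager by 0.58 on the log2 scale. The Ager call was lost without Epor-eGFP- library 0 (adjusted p = 0.0627), Epor-eGFP+ library 0 (0.0633) or both libraries numbered 2 (0.0673). Wdr46 rose by 0.60 (adjusted p = 0.0047). H2-K1, a classical class I gene, was at 631 ± 78.0 and 706 ± 94.8 FPKM in Epor-eGFP+ and Epor-eGFP- (adjusted p = 0.353) and Psmb9 at 80.9 ± 3.17 and 89.5 ± 5.41 (adjusted p = 0.148). The count of higher genes was 3 with a common total, 2 with a common upper quartile and 2 with quantile normalization or the replicate block, and that of lower genes was 5 without Epor-eGFP+ library 0. Over all 7 lists, 16 of 81 tested genes were higher and 34 lower, beside 22.7% higher and 26.3% lower among all tested genes. The lower count over these lists was 22 without Epor-eGFP- library 0 and 20 without Epor-eGFP+ library 0.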

How the data were processed

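RNA of F4/80+ bone marrow cells, with or without Epor-eGFP (3 libraries each), was made into TruSeq libraries, per the labels' protocols. The deposited table holds FPKM per gene. The submitters' processing notes name, without roles, the build mm10, Cufflinks 2.2.1, TopHat2 2.1.0, Trimmomatic 0.35 and bcl2fastq 2.19.1.403. The sources used here do not give the annotation, the filters or any scaling across libraries. Columns were matched to a group, not to a sample, because their numbers (0 to 2) are not those of the labels.

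limma 3.58.1 (R 4.3.3) with eBayes and a mean-variance trend was run on log2(FPKM + 1), two-sided, with the group as covariate. This scale understates changes of low genes. The 10964 genes whose mean reached 1 FPKM were tested and adjusted together. The script was tested on simulated data. Same-numbered libraries deviated together (correlations 0.25, 0.38 and 0.35 over genes), so blocked values are given where a call changes. The blocks are the column numbers, and no label says what these numbers mark. The correlations come from the same values as the tests. Alternatives were a pseudocount of 0.1, no filter, a minimum of 5 FPKM, 3 scalings, no trend, the replicate block, and leaving out libraries.

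Members and lists were chosen with earlier results of these data known. Genes named are the members, of each pathway list up to 5 called genes with the largest change and 2 uncalled ones of highest FPKM, up to 2 called genes of markers, and the 5 nearest profiles. Exceptions are marked. Of the other marker lists, 1 of 9 eosinophil genes was higher and 5 lower, 8 of 12 erythroid genes were higher and none lower, and 2 of 6 T and NK genes were higher and 4 lower.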

Additional observations from a re-analysis of the deposited data

How the results depend on the processing

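Over 15 alternatives the classical chains, Cd86 and Cd83 kept their direction and their call, with log2 fold changes of 1.02 to 1.39 for H2-Aa, 0.94 to 1.33 for H2-Ab1, 1.27 to 1.59 for H2-Eb1, 1.25 to 1.97 for Cd86 and 1.397 to 1.85 for Cd83. Leaving out a library gave 5 to 8 members called higher, 1611 to 2428 genes higher in all, and 11 to 17 pathway genes higher and 20 to 32 lower. The replicate block, in a paired fit, gave 8 members, 3066 genes higher and 3335 lower, and it changed no call of a member other than H2-DMb1. Among the named genes it also changed those of H2-Ob, Irf8, Ctss, Cd63 and Cd48. Directions turned for H2-DMa (0.065 with a common total, 0.027 with a common upper quartile, 0.038 with quantile normalization, −0.12 to 0.13 on leaving out a library, 0.048 without both libraries numbered 2), H2-DMb2 (−0.71 to 0.075 on leaving out a library) and H2-Eb2 (−0.18 with quantile normalization, −0.20 to 0.17 on leaving out a library). They also turned for Ifngr1 (0.020 with quantile normalization), Lamp1 (−0.19 to 0.27 on leaving out a library, −0.084 without both numbered 2) and Adgre1 (−0.069 to 0.45 on leaving out a library, −0.051 without both numbered 2). The cause was not tested. None of these genes was called in the main or the turned analysis. The FPKM table gives no read depth, so counting error cannot be separated from other spread.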
